A study of Mus musculus with 18 samples.

Results

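Among the genes measured by RNA-seq in GFP+ mESCs, 227 of 24369 were lower in *Nprl2* KO and higher in *Tsc2* KO than in wild-type. They were chosen by their measured levels in these libraries. The rule took the mean TPM of the 2 libraries per genotype, and asked for a wild-type mean of at least 3 TPM, an *Nprl2* KO mean at least 1.3-fold lower and a *Tsc2* KO mean at least 1.3-fold higher. Both *Nprl2* KO libraries also had to lie under both wild-type libraries, and both *Tsc2* KO libraries above them. TPM, a transcript's share of all transcripts, scales the reads of a transcript by its length and by the library total. *Nanog*, *Tcl1*, *Prdm14*, *Nr5a2* and *Nr0b1*, *Esrrb*, *Tbx3*, *Tfcp2l1*, *Zfp42* and the *Klf* genes were left out by name, and 8 of these met the thresholds. The wild-type minimum alone was met by 10768 genes, of which the 227 are 2.11%. Since these 6 libraries chose the genes, the differences between genotypes below are a description and carry no test.

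The GFP+ cells were E14 mESCs of the genotype Rex1GFPd2-Cas9, or the same line with *Nprl2*-/- or *Tsc2*-/-, so controls and KOs share a GFP reporter in *Rex1* and a Cas9 cassette in *Rosa26* driven by the human EF1α promoter. Rex1GFPd2-Cas9 is 1 selected line, and the KOs were made by deleting a critical exon. They had been kept in serum with LIF on feeder cells and were sorted for GFP, and the labels do not say whether the 2 libraries of a genotype came from separate clones or cultures. A second set of 12 libraries followed wild-type Rex1GFPd2-Cas9 cells over days 0, 1, 2 and 3 of differentiation in NDiff227 medium without inhibitors or LIF, with 3 libraries per day, and none of these was used to choose the genes. For that time course, tests measure the spread between libraries, which may be technical, and neither the medium of the day-0 cells nor a sort is given in the labels.

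*Nprl2* is a subunit of Gator1, which holds back the Rag GTPases at the lysosome when amino acids are short, and *Tsc2* is the part of the Tsc complex that switches off Rheb. Loss of either raises the activity of the kinase mTORC1. Naive mESCs correspond to the early epiblast, and on withdrawal of LIF and inhibitors they pass into a formative state in which genes such as *Rex1* are shut down. The lysosome is both the platform on which mTORC1 is activated and the place where cell components are broken down, and its genes are driven by the transcription factors Tfe3, Tfeb and Mitf, which are kept in the cytoplasm through the Rag GTPases and the folliculin complex of Flcn and Fnip1.

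Library totals lay between 8468375 and 14763909 estimated counts, so that the 3 counts a value of 0 can still hide come to 0.203 to 0.354 CPM (counting error only). The labels were checked on the targeted genes. *Nprl2* was at 16.1 and 17 TPM in wild-type, 8.09 and 8.65 in *Nprl2* KO cells and 16.5 and 20.8 in *Tsc2* KO cells, and *Tsc2* was at 45 and 44.9, 45.5 and 41.8 and 18.8 and 20.3 TPM in the same order. Each targeted gene was thus lowest in its own KO and was not at 0. The pluripotency factor *Pou5f1* was between 1344 and 1919 TPM in the GFP+ libraries and on days 0 to 2, and at 1102, 1369 and 1227 on day 3. *Sox2*, another such factor, was at 357 and 357.9 TPM in wild-type, 322 and 307 in *Nprl2* KO cells and 390.5 and 349 in *Tsc2* KO cells. In the time course *Sox2* was at 434, 494 and 439.5 TPM on day 0 and 55.9, 67.8 and 57.7 on day 2. Collagen *Col1a1*, of the fibroblasts that serve as feeder cells, was at 60.3 and 15 TPM in the 2 *Tsc2* KO libraries and at 70.7 and 52 in wild-type. None of the 22 feeder genes listed is among the 227, and their summed level was 421 to 541 TPM in wild-type, 422 to 463 in *Nprl2* KO and 177 to 498 in *Tsc2* KO. A list of 20 primitive endoderm genes outside the 227 summed to 467 to 470, 387 to 425 and 647 to 670 TPM, while the defining factors were low. *Gata4* was at 0.656 and 1.63 TPM in wild-type and 1.92 and 1.53 in *Tsc2* KO, *Gata6* at 0.269 and 1.25 and 1 and 1.1, and *Sox17* at 0.156 and 0.675 and 0.462 and 0.597. Formative factors, which mark exit from the naive state, summed to 944 to 1110.0 TPM in wild-type, 1200.0 to 1360.0 in *Nprl2* KO and 520.0 to 547 in *Tsc2* KO. The part of these cell types and states in the results was not tested, and in bulk samples fewer cells of a type and less RNA per cell cannot be told apart.

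The size of the difference varied widely. The ratio of *Tsc2* KO to wild-type ran from 1.3 to 6.62 with a median of 1.59, and 61 of the 227 genes were at least 2-fold higher. The fold by which *Nprl2* KO lay under wild-type ran from 1.3 to 5.84 with a median of 1.49, and 25 genes passed 2-fold. Wild-type levels were mostly modest, with a median of 10.8 TPM and a range of 3.01 to 465. Just inside the *Nprl2* KO threshold were *Ctdsp2* at 1.301-fold, *Glmp* at 1.302 and *Gstm4* at 1.303, and just outside were *Slc12a7*, *Gm2a* and *Sgce*, each at 1.299. Just inside the *Tsc2* KO threshold were *Etv1* and *Ctsa*, each at 1.305-fold, and *Dhtkd1* at 1.306, with *Tatdn3* at 1.297, *3830406C13Rik* at 1.295 and *Cbr4* at 1.294 outside. Of 1185 genes whose libraries were ordered as the rule asks, the 227 were those past both folds. The opposite set, higher in *Nprl2* KO and lower in *Tsc2* KO by the same thresholds, held 136 genes.

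**Figure D1:**
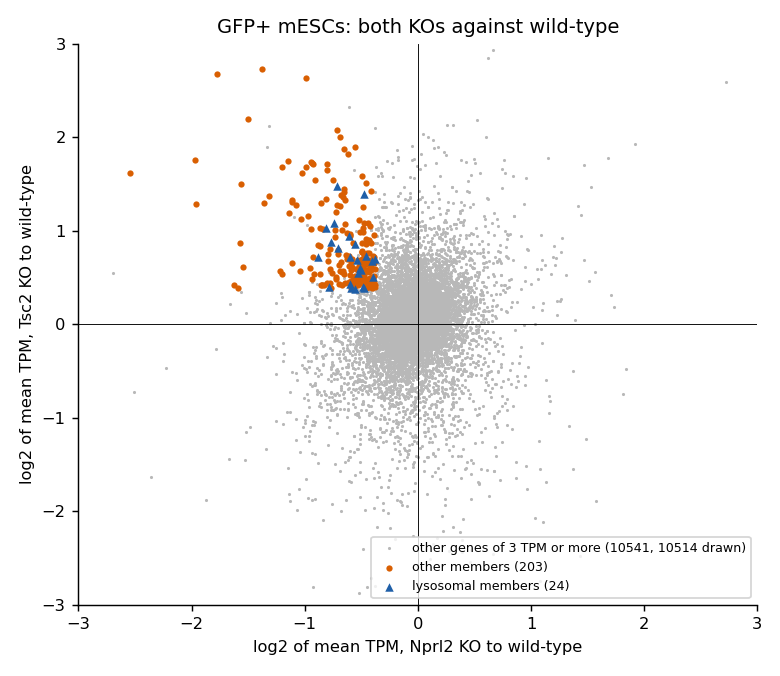
Each point is a gene with a wild-type mean of at least 3 TPM. The x axis is the log2 ratio of mean TPM in *Nprl2* KO to wild-type and the y axis that in *Tsc2* KO to wild-type. Orange points and blue triangles are the 227 genes, 24 of them lysosomal, which fill the upper left by the rule that chose them, and grey points are the other 10541 genes, of which 10514 lie within the axes.

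The widest spread between the KOs was in *Tgfbi*, which encodes a secreted matrix protein. *Tgfbi* was at 6.42 and 3.69 TPM in wild-type, 1.63 and 1.33 in *Nprl2* KO cells and 35.7 and 29.1 in *Tsc2* KO cells. *Fabp3*, a fatty acid-binding protein, was among the most abundant of the 227, at 122 and 221 TPM in wild-type, 54.4 and 66.8 in *Nprl2* KO cells and 733 and 845 in *Tsc2* KO cells. *Renbp* was at 61.3 and 76.8 TPM in wild-type, 25.1 and 28.9 in *Nprl2* KO cells and 158 and 182 in *Tsc2* KO cells, and encodes an epimerase of amino sugar metabolism. The wild-type libraries themselves differed by more than 1.5-fold for *Tgfbi* and *Fabp3*, while those of *Renbp* were closer. Also among the 15 widest were *H19*, *Patl2*, *S100a13*, *Uap1l1*, *Bdh2*, *Parvb*, *Ankrd45*, *Hmga2*, *Dcaf12l1*, *Ly75*, *Lpl* and *Hebp1*. For these 15 genes the *Tsc2* KO mean was 6.25-fold to 21.9-fold the *Nprl2* KO mean. *S100a13* was at 6.36 and 14.3 TPM in wild-type, 4.12 and 6.28 in *Nprl2* KO cells and 58.1 and 70.8 in *Tsc2* KO cells, with calcium binding as the role of its protein, and *Parvb*, a partner of integrin-linked kinase, was at 19.4 and 21, 10.2 and 7.44 and 68.8 and 60.9 TPM in the same order. *Lpl* was at 10.5 and 11.5 TPM in wild-type, 5.4 and 6.09 in *Nprl2* KO cells and 32.8 and 40.1 in *Tsc2* KO cells, and encodes lipoprotein lipase. By annotation 221 of the 227 are protein coding, 4 are long noncoding RNAs, 1 is a pseudogene (*Gm8615*) and 1 a miRNA (*Mir6948*). Of chromosome 1, which stood apart in *Tsc2* KO with a median log2 ratio of 0.39 over its 571 genes of at least 3 TPM against 0.03 over all such genes, 18 genes (3.15%) were among the 227. Chromosomes 3 (3.81%) and 6 (3.73%), with medians of 0.04 and 0.05, held larger shares.

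A block of 24 of the 227 encodes proteins of the lysosome or of the Rag GTPase pathway on its surface. Groups by role were drawn up after the values had been seen. Of these, 13 are enzymes or other proteins of the lumen, 8 sit in the membrane and 3 belong to the Rag pathway. Summed over the 24 genes, the level was 789.6 and 931.3 TPM in wild-type, 540.5 and 599.4 in *Nprl2* KO cells and 1370.0 and 1578 in *Tsc2* KO cells. A list of lysosomal genes and Tfe3 targets, drawn up with earlier results of these data known and sharing genes with the 24, was also counted. Of its 34 genes with at least 3 TPM, 9 were among the 227, or 26.5% against 2.11% of all such genes. Counted at any size, 27 of the 34 (79.4%) lay under wild-type in *Nprl2* KO and over it in *Tsc2* KO, against 28.0% of the 10768 genes. The median log2 ratio of the list was -0.33 for *Nprl2* KO and 0.41 for *Tsc2* KO, beside -0.04 and 0.03 over all genes. This shift was not particular to lysosomal genes. In a naive pluripotency list 21 of 28 genes had it at any size, with medians of -0.40 and 0.44. With the genes left out by name set aside, 1 of these 28 was among the 227. Of the primitive endoderm list, 6 of 9 genes had the shift. Every other list had a lower share, from 8 of 17 germline genes down, with formative factors at 1 of 20. Of the other lists, 2 of 9 primitive endoderm genes (22.2%), 3 of 21 genes of TGF-beta, Nodal and BMP signalling (14.3%), 1 of 7 trophoblast genes (14.3%), 3 of 24 imprinted genes (12.5%) and 2 of 17 germline genes (11.8%) were among the 227. The lists for formative factors, LIF signalling, Wnt targets, the Atf4 response, cholesterol synthesis, the cell cycle and 2-cell-like cells held none, and at 2.11% few could be found in lists of that size.

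Promoters of these lysosomal genes were read for the site of the Tfe3 family, because the RefSeq promoter table (GRCm38.p6, 250 bases before to 50 after the start of each gene) holds 22 of the 24. Both strands were searched for TCACGTGA, the E-box CACGTG flanked by T and A, and for TCATGTGA, the related M-box. Both motifs were added after the gene lists had been seen. The plain E-box CACGTG, which TCACGTGA contains, was found in 6 of 22 promoters (27.3%), against 7.15% of all 32851 promoters of the table and 11.1% of those of genes with at least 3 TPM in wild-type. TCACGTGA was found in 3 (13.6%), against 0.974% and 2.23%. TCATGTGA was found in 4 (18.2%), against 0.986% and 0.783%, and TCACGTGA or TCATGTGA in 6 (27.3%), against 1.94% and 2.95%. Other motifs were also searched. AAGGTCA, a site of Esrrb and Nr5a2, was found in 2 (9.09%), against 4.72% and 2.99%. The Klf site GGGTGTG was found in 3 (13.6%), against 7.95% and 8.0%. Higher shares were thus not limited to the letters of the Tfe3 family. The Stat site and the TATA box were each found in 1 (4.55%), under both shares. The Tcf, T-box and octamer sites were found in 0. The median share of G and C was 58.3% in the lysosomal promoters, 52.7% over all promoters and 61.3% over those of genes with at least 3 TPM. For the lysosomal genes and those with at least 3 TPM, the first promoter listed per gene was read. The share over the table counts every promoter listed, so its unit differs. The share for genes with at least 3 TPM rests on the 8553 of 10768 (79.4%) that had a promoter in the table. Of the 227 genes, 177 (78.0%) had 1, which is under the 80% asked for a check over a gene set, so that check is void. A match is a description of these letters and not a site shown to be bound.

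The 6 promoters are shown with the motif in capitals, 60 bases where the motif lies well before the start and 30 bases where it lies at or after it, so that the sites can be set beside the expression values. Each is written 5′ to 3′ on the strand of its gene. For *Grn* the M-box is on the opposite strand and reads TCACATGA. *Dpp7*, *Mfsd1* and *Slc36a1* are shown for the E-box, and *Tpp1*, *Glmp* and *Grn* for the M-box.
Dpp7 (chr2:25356373-25356432, minus strand): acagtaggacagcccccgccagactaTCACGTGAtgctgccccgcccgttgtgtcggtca
Mfsd1 (chr3:67582671-67582730, plus strand): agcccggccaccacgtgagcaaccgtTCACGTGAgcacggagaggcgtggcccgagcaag
Slc36a1 (chr11:55204325-55204354, plus strand): gggagccagcaTCACGTGAcagggcccgga
Tpp1 (chr7:105752213-105752242, minus strand): ccagaccatgcTCATGTGActtatcacatg
Glmp (chr3:88325023-88325052, plus strand): caggaaaggagTCATGTGActctgaggctc
Grn (chr11:102430270-102430329, plus strand): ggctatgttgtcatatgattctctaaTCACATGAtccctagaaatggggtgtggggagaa

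*Dpp7*, a peptidase, also holds the M-box 2 times, and *Mfsd1*, the membrane partner of *Glmp*, holds TCACGTGA 3 times. The E-box of *Dpp7* begins 74 bases before the start site and that of *Slc36a1*, an exporter of amino acids from the lysosome, 4 bases before it. *Dpp7* was at 28.2 and 31 TPM in wild-type, 18.9 and 20.2 in *Nprl2* KO cells and 45.2 and 52.4 in *Tsc2* KO cells. *Slc36a1* was at 6.71 and 7.25 TPM in wild-type, 4.46 and 5.72 in *Nprl2* KO cells and 11.1 and 12.1 in *Tsc2* KO cells. *Tpp1* was at 35.6 and 42 TPM in wild-type, 25 and 26.5 in *Nprl2* KO cells and 47.7 and 53.7 in *Tsc2* KO cells, and encodes a lysosomal peptidase. The order of the libraries is set by the rule. The 3 genes lay 1.52-fold, 1.37-fold and 1.51-fold under wild-type in *Nprl2* KO and 1.65-fold, 1.66-fold and 1.31-fold over it in *Tsc2* KO.

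Among the enzymes and lumenal proteins, the fold under wild-type in *Nprl2* KO was 1.32 to 1.84 and the fold over it in *Tsc2* KO 1.3 to 2.8. *Ctsl* was at 104 and 154 TPM in wild-type, 60.3 and 86.5 in *Nprl2* KO cells and 244 and 285 in *Tsc2* KO cells, and encodes the protease cathepsin L. *Hexa* was at 40.6 and 48.8 TPM in wild-type, 26.2 and 26.2 in *Nprl2* KO cells and 74.7 and 90.2 in *Tsc2* KO cells, and encodes a subunit of the hexosaminidase that degrades gangliosides. *Grn* was at 80.2 and 93.6 TPM in wild-type, 53.4 and 60.8 in *Nprl2* KO cells and 145 and 190 in *Tsc2* KO cells, and encodes progranulin. For *Ctsl* the wild-type libraries lay further from each other than the lower of them lay from the higher *Nprl2* KO library. This group also holds *Creg1*, *Ctsc*, *Manba*, *Neu1*, *Ctsa*, *Tpp1*, *Dpp7* and *Dnase2a*. The membrane proteins, among them the cystine exporter *Ctns*, the proton pump accessory protein *Atp6ap2* and the ion channel *P2rx4*, had folds of 1.3 to 1.47 and 1.42 to 2.63. The Rag pathway genes had folds of 1.31 to 1.35 in *Tsc2* KO, close to the threshold. *Flcn* was at 32.6 and 43.2 TPM in wild-type, 23.9 and 26.1 in *Nprl2* KO cells and 44.5 and 57.8 in *Tsc2* KO cells. *Rragc* was at 47 and 57.4 TPM in wild-type, 35.5 and 39.6 in *Nprl2* KO cells and 64.2 and 72.6 in *Tsc2* KO cells, and encodes the Rag GTPase on which folliculin acts. *Tfe3*, *Tfeb* and *Mitf* are not among the 227. *Tfe3* was at 88.9 and 90.8 TPM in wild-type, 109 and 99.3 in *Nprl2* KO cells and 43.1 and 42 in *Tsc2* KO cells, which is the opposite order. *Tfeb* was at 6.21 and 5.09 TPM in wild-type, 7.14 and 5.67 in *Nprl2* KO cells and 7.22 and 9.37 in *Tsc2* KO cells, so that its *Nprl2* KO and wild-type libraries overlapped. *Mitf* was at 2.29 and 1.56 TPM in wild-type, 1.48 and 1.36 in *Nprl2* KO cells and 3.24 and 3.56 in *Tsc2* KO cells, which is the order of the 227 genes at a level under the wild-type minimum.

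**Figure D2:**
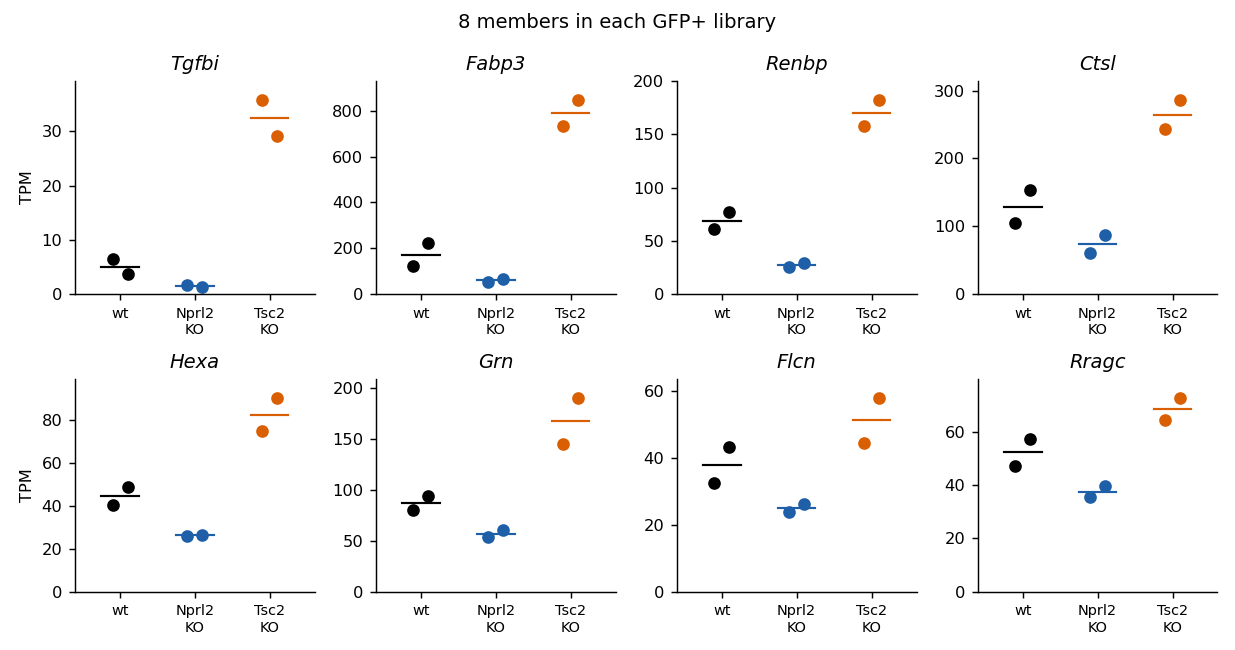
TPM of 8 of the 227 genes in each GFP+ library, with a point per library, 2 per genotype, and a line at the mean. In every panel both *Nprl2* KO points (blue) lie under and both *Tsc2* KO points (orange) above both wild-type points (black), as the rule requires, and the ratio between the KOs is widest for *Tgfbi* and narrowest for *Rragc*.

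The time course gave a test on libraries the rule had not used. Most of the 227 genes fell within the first day of differentiation. In a quasi-likelihood fit with edgeR, adjusted by Benjamini-Hochberg over 14374 genes, 183 of the 226 genes tested were lower on day 1 than on day 0 (81.0%), against a background of 30.8% of all genes tested, and 18 were higher (7.96%), against 30.1%. *Mir6948* did not pass the filter on low counts. The median log2 fold change was -1.05, against 0.000642 over all genes. Of the 10585 tested genes with at least 3 TPM in GFP+ wild-type cells, 31.5% were lower. Of the opposite set, 84 of 132 genes tested (63.6%) were higher and 18 (13.6%) lower. On day 2, 173 were lower than on day 0 (76.5%, background 32.4%) and 24 higher (10.6%, background 34.2%). On day 3, 159 were lower (70.4%, background 35.9%) and 32 higher (14.2%, background 35.0%). The medians were -0.90 and -0.86. Over the same libraries the feeder list summed to 447 to 471 TPM on day 0, 132 to 138 on day 1 and 415 to 665 on day 3. *Col1a1* was at 6.59, 3.02 and 2.98 TPM on day 0 and 1.25, 1.03 and 1.24 on day 3, so the sum did not follow it. *Thy1*, also of that list, was at 4.51, 5.57 and 3.06 TPM on day 0 and 33.3, 30.2 and 26.8 on day 3. The primitive endoderm list was at 498 to 588 TPM on day 0 and 341 to 377 on day 1, and the formative list at 603 to 646 and 2290.0 to 2350.0. The part of these lists in the calls was not tested.

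**Figure D3:**
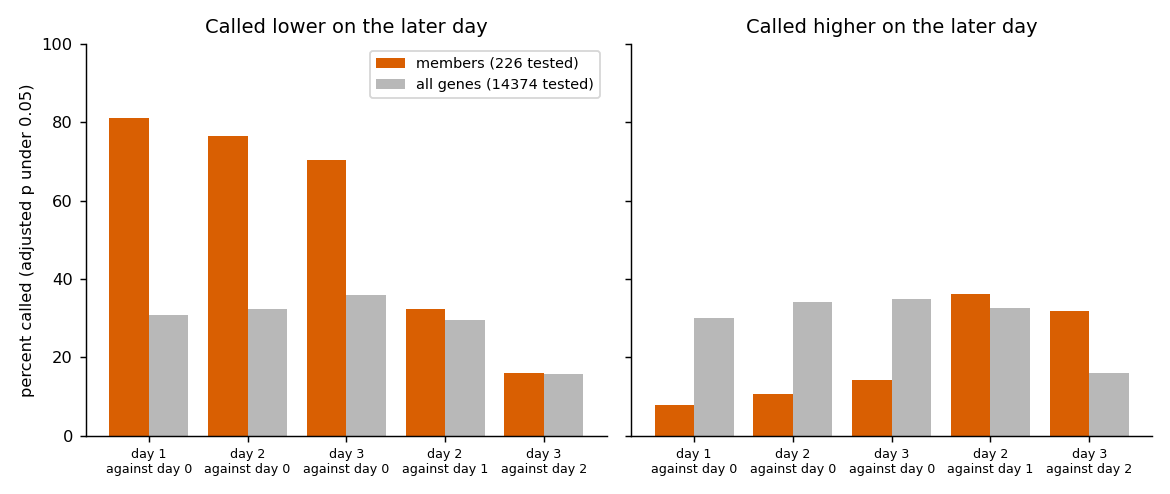
Percent of genes called lower (left) or higher (right) on the later day of each comparison, by edgeR at an adjusted p under 0.05. Orange bars are the 226 genes tested of the 227 and grey bars all 14374 genes tested. The orange bar for lower calls stands at 81.0% on day 1 and 70.4% on day 3 against 30.8% and 35.9% for all genes, and between days 1 and 2 the bars are close.

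After day 1 the genes took several courses. Between day 1 and day 2, 82 of the genes rose (36.3%, background 32.5%) and 73 fell (32.3%, background 29.6%). Between day 2 and day 3, 72 rose (31.9%, background 15.9%) and 36 fell (15.9%, background 15.7%). Of the genes tested, 138 (61.1%) were lower than day 0 on all 3 days, against 16.6% of all genes. A fall on day 1 followed by a further fall on day 2 was called for 55 genes (24.3%, 6.30% of all genes), and a fall followed by a rise on day 2 for 70 (31%, 13.4%). These courses overlap. Both day-2 courses need a day-1 fall, called for 183 of the 226 genes and 4421 of all 14374, so their shares carry that difference. Among genes that fell on day 1, 70 of the 183 and 1925 of the 4421 rose on day 2, and 55 and 905 fell further. In all, 14 genes (6.19%, 5.57%) were lower on day 1 and higher on day 3 than on day 0, among them *Acot13*, *B2m*, *Neu1* and *P2rx4*. *Gstm4* was the 1 gene called on no day.

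Of the 24 lysosomal genes, 23 were lower on day 1 and 1, *Rragc*, was higher. The median log2 fold change of the 24 was -1.02 on day 1, -0.80 on day 2 and -0.52 on day 3, with 19 lower and 2 higher on day 2 and 17 lower and 4 higher on day 3. For the 125 tested genes without an assigned role the medians were -1.02, -0.81 and -0.89, with 102 lower and 9 higher on day 1. The size of the day-1 fall was thus not particular to the lysosomal genes. Of the list of lysosomal genes and Tfe3 targets, 29 of 36 tested were lower and 4 higher on day 1, against 30.8% and 30.1% of all genes, and 19 lower and 7 higher on day 3, against 35.9% and 35.0%. Summed over the 24, the level was 1253, 1209 and 1318 TPM on day 0, 586.7, 599.9 and 630.2 on day 1, and 777.1, 741.1 and 791.6 on day 3.

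*Ctsl* was at 136, 149 and 134 TPM on day 0, 60, 56.1 and 60.3 on day 1, 99.99, 100.3 and 129.8 on day 2 and 144, 134 and 129.8 on day 3. It was lower on day 1 (log2 fold change -1.18, SE 0.083, adjusted p = 5.72e-10), and by day 3 it was no longer called (log2 fold change -0.12, SE 0.079, adjusted p = 0.173). *Hexa* was at 92.8, 91.8 and 91.3 TPM on day 0, 25.4, 28.2 and 28.5 on day 1, 55.2, 47.2 and 63.4 on day 2 and 75.5, 71.9 and 74.3 on day 3. It fell with no overlap of libraries on day 1 (log2 fold change -1.68, SE 0.082, adjusted p = 2.28e-12) and was still under day 0 on day 3 (log2 fold change -0.40, SE 0.076, adjusted p = 1.15e-04). *Grn* was at 134, 128 and 139.9 TPM on day 0, 50.6, 53.4 and 52.5 on day 1, 59.9, 52.9 and 70.9 on day 2 and 79.3, 66.3 and 76.9 on day 3, and after its day-1 fall (log2 fold change -1.29, SE 0.083, adjusted p = 1.57e-10) it was still lower on day 3 (log2 fold change -0.94, SE 0.081, adjusted p = 5.36e-09).

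Other lysosomal genes passed their day-0 level. The sialidase *Neu1* was at 9.79, 9.78 and 8.38 TPM on day 0, 3.76, 4.53 and 5.22 on day 1, 11.3, 10.1 and 14.5 on day 2 and 19.3, 16.8 and 19.7 on day 3. It was lower on day 1 (log2 fold change -0.98, SE 0.14, adjusted p = 4.05e-06) and higher on day 3 (log2 fold change 0.91, SE 0.12, adjusted p = 1.25e-06). *P2rx4* was at 7.75, 8.11 and 7.2 TPM on day 0, 2.18, 2.23 and 1.45 on day 1 and 12.6, 12.4 and 10.7 on day 3, a fall (log2 fold change -1.89, SE 0.18, adjusted p = 3.11e-08) followed by a rise over day 0 (log2 fold change 0.55, SE 0.14, adjusted p = 0.002). *Laptm5* and *Manba* went the other way. *Laptm5*, which encodes a lysosomal transmembrane protein of blood cells, was at 204, 182 and 224 TPM on day 0, 54.8, 55.3 and 65.3 on day 1, 4.89, 4.13 and 3.89 on day 2 and 1.19, 0.84 and 0.973 on day 3, and its libraries did not overlap between any days. *Manba*, which encodes beta-mannosidase, was at 41.2, 37.6 and 51.9 TPM on day 1 and 4.48, 5.31 and 5.34 on day 2, against 62, 55.4 and 76.2 on day 0 (day 2: log2 fold change -3.72, SE 0.15, adjusted p = 1.47e-11).

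The Rag pathway genes moved least of the 3 lysosomal groups. *Flcn* was at 35.7, 33.6 and 36.3 TPM on day 0, 21.9, 24.2 and 23.6 on day 1, 30, 28.3 and 31.7 on day 2 and 30.8, 33.1 and 39.1 on day 3, lower on day 1 (log2 fold change -0.54, SE 0.077, adjusted p = 5.8e-06) and not called on day 3 (log2 fold change -0.12, SE 0.075, adjusted p = 0.176). *Fnip1* was at 17, 19.9 and 18.5 TPM on day 0, 9, 8.48 and 8.59 on day 1, 13.2, 12.7 and 14.3 on day 2 and 14.6, 14.3 and 16.7 on day 3, and was lower on day 1 (log2 fold change -1.02, SE 0.077, adjusted p = 1.16e-09) and on day 3 (log2 fold change -0.37, SE 0.074, adjusted p = 1.82e-04). *Rragc* was at 36, 31.7 and 37.6 TPM on day 0 and 37.8, 38.4 and 40.3 on day 1, with all day-1 libraries above all day-0 libraries, if only slightly (log2 fold change 0.22, SE 0.075, adjusted p = 0.0181). It was also called higher on day 3 than on day 0. Of the factors that drive lysosomal genes, none of them among the 227, *Tfe3* was at 99.9, 91.8 and 95.4 TPM on day 0 and 160.5, 168 and 164 on day 1, *Tfeb* at 52.2, 47.8 and 47.5 and 3.24, 3.64 and 3.15, and *Mitf* at 14.1, 13.6 and 14.2 and 0.648, 0.296 and 1.04.

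**Figure D4:**
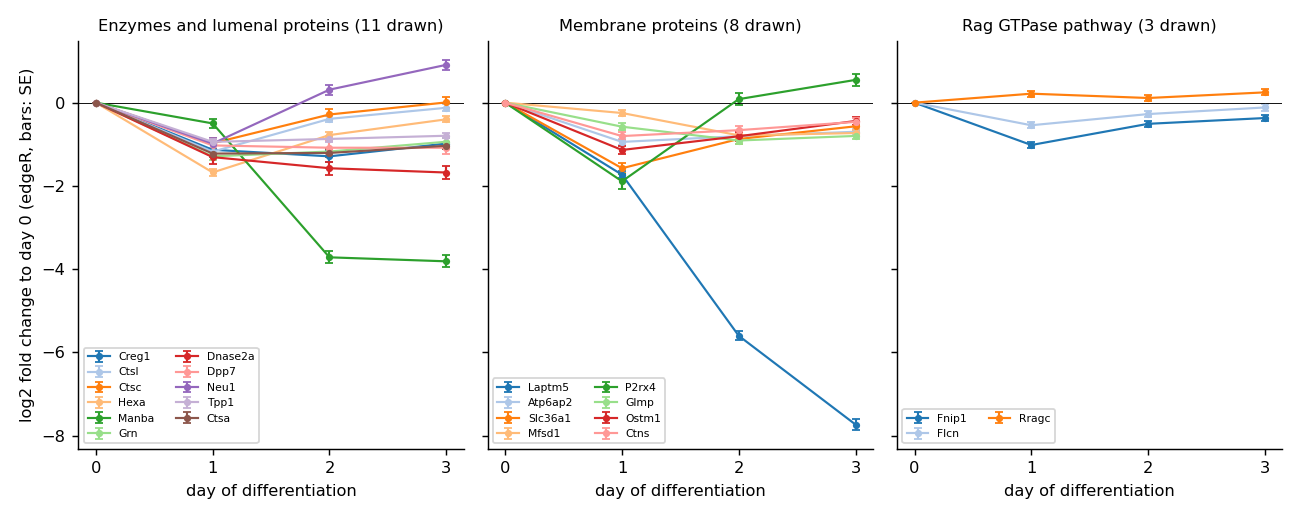
Log2 fold change to day 0 on days 1, 2 and 3 for 22 of the 24 lysosomal genes, in panels for 11 enzymes and lumenal proteins, 8 membrane proteins and 3 genes of the Rag GTPase pathway. Points are edgeR estimates over 3 libraries per day and bars are their SE. All lines but that of *Rragc* lie under 0 on day 1, *Neu1*, *P2rx4* and *Rragc* were called higher on day 3, and *Laptm5* and *Manba* end lowest in their panels.

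Genes of lipid handling (14) and of sugar and amino sugar metabolism (11) formed the next groups. On day 1, 10 and 9 of them were lower, with medians of -0.93 and -1.33, and 2 and 0 were higher. Of all genes tested, 30.8% were lower and 30.1% higher, and of the 226, 81.0% and 7.96%. *Fabp3* was at 458, 439 and 487 TPM on day 0, 45, 43.4 and 63.8 on day 1, 48.4, 44.4 and 75.4 on day 2 and 104, 83.6 and 79.5 on day 3. Its day-1 libraries all lay under those of day 0 (log2 fold change -3.12, SE 0.17, adjusted p = 1.17e-08). *Cpt1a*, which admits fatty acids into mitochondria, was at 56.8, 52.3 and 53.3 TPM on day 0, 6.15, 6.09 and 7.26 on day 1, 3.17, 3.37 and 3.79 on day 2 and 2.72, 2.44 and 2.26 on day 3, with each day under the one before it (day 3: log2 fold change -4.53, SE 0.095, adjusted p = 4.75e-18). *Slc2a3*, a glucose transporter, was at 533, 516 and 490.1 TPM on day 0, 46.5, 39.6 and 50 on day 1, 129.7, 104 and 137 on day 2 and 324, 239.5 and 341 on day 3. It fell on day 1 (log2 fold change -3.43, SE 0.14, adjusted p = 1.08e-09) and then rose on both following days. *Renbp* was at 116, 112 and 129.9 TPM on day 0 and 24.4, 26.9 and 28.5 on day 1 (log2 fold change -2.09, SE 0.10, adjusted p = 1.95e-12). *Acot13*, a thioesterase of fatty acyl-CoA, was at 31.7, 39.2 and 37.2 TPM on day 0, 17.8, 22 and 15.6 on day 1, 51, 40.5 and 61.2 on day 2 and 91.2, 82.1 and 85.9 on day 3, and ended above day 0 (log2 fold change 1.17, SE 0.14, adjusted p = 3.47e-07). *Lpcat1* and *Ppap2b* were the lipid genes that rose on day 1.

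Among 14 genes of adhesion, junctions and matrix, 11 were lower and 1 was higher on day 1, with the lowest median of any role, -1.82. Shares over all genes were 30.8% and 30.1%, and 81.0% of the 226 were lower. *Jam2*, a junction adhesion molecule and the only gene of a naive pluripotency list among the 227 once the genes left out by name are set aside, was at 81, 69.7 and 78.8 TPM on day 0, 2.43, 2.34 and 3.02 on day 1, 0.185, 0.207 and 0.155 on day 2 and 0.244, 0.374 and 0.311 on day 3 (day 3: log2 fold change -8.02, SE 0.13, adjusted p = 4.17e-19). Its libraries did not overlap day 0 on any later day. The nidogen *Nid1* and the laminin chain *Lamc1* of basement membrane, the galectin *Lgals3* and *Parvb* were also lower on all 3 days. *Itga6*, a laminin receptor subunit, was higher on day 1 (log2 fold change 0.60, SE 0.073, adjusted p = 9.61e-07). *Cldn4* was not called on day 1 and was higher on day 3 (log2 fold change 1.13, SE 0.27, adjusted p = 0.00441).

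Of 14 components of signalling pathways, 13 were lower on day 1 and none was higher, against 30.8% and 30.1% of all genes. The remaining gene, the thrombin receptor *F2r*, was not called on day 1 (log2 fold change -0.09, SE 0.13, adjusted p = 0.574). *Sfrp1*, a secreted Wnt antagonist, was at 58.3, 49.1 and 51.3 TPM on day 0, 3.33, 3.65 and 4.87 on day 1, 8.13, 8.42 and 9.15 on day 2 and 13.5, 13.1 and 15.7 on day 3 (day 1: log2 fold change -3.67, SE 0.11, adjusted p = 9.56e-16). *Id4*, an inhibitor of helix-loop-helix factors, was at 9.5, 11.5 and 11.9 TPM on day 0 and 0.669, 0.427 and 0.375 on day 1 (log2 fold change -4.37, SE 0.30, adjusted p = 3.5e-10). *Smad7*, which restrains TGF-beta signalling, and *Acvr1b*, a receptor for activin and Nodal, had log2 fold changes of -2.26 and -1.35 on day 1, both called. Of 9 regulators of transcription and chromatin, 7 were lower on day 1 and 1, *Etv1*, was higher, against 30.8% and 30.1% of all genes. *Tead4*, a partner of Yap, was at 23.3, 22.2 and 24.7 TPM on day 0, 2.66, 3.45 and 4.41 on day 1, 1.45, 0.757 and 1.35 on day 2 and 2.31, 2.12 and 2.04 on day 3 (day 1: log2 fold change -2.66, SE 0.15, adjusted p = 1.69e-11). *Hmga2* was at 9.18, 8.91 and 9.22 TPM on day 0, 9.98, 8.34 and 10.9 on day 1 and 19.5, 17.3 and 21 on day 3, where it was higher (log2 fold change 1.00, SE 0.093, adjusted p = 1.19e-08).

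All 7 genes of interferon response and immunity were lower on day 1, against 30.8% of all genes. On day 3, 6 were lower and 1 higher, against 35.9% and 35.0%. *B2m*, the light chain of MHC class I, was at 39.1, 36.7 and 33.2 TPM on day 0, 8.76, 7.64 and 8.39 on day 1, 42.5, 38.1 and 60.1 on day 2 and 102, 72.1 and 83.9 on day 3, and rose over day 0 by day 3 (log2 fold change 1.16, SE 0.14, adjusted p = 1.03e-06). *Phf11d* was at 64.8, 64.9 and 56.7 TPM on day 0, 37.2, 38 and 38 on day 1, 1.1, 1.63 and 0.721 on day 2 and 0.187, 0.244 and 0.371 on day 3, with its largest step between days 1 and 2. Of the 5 germ cell genes, none was lower on day 1, against 30.8% of all genes, and *D1Pas1* and *Stk31* were higher, against 30.1%. By day 3, 4 were lower, against 35.9%. *D1Pas1*, a DEAD-box helicase gene of testis, was at 17.1, 22.3 and 16.1 TPM on day 0, 30.9, 29.1 and 32.7 on day 1, 5.66, 5.1 and 4.57 on day 2 and 1.62, 2.2 and 1.47 on day 3 (day 1: log2 fold change 0.80, SE 0.11, adjusted p = 5.83e-06). *Sohlh2*, a regulator of germ cell development, was at 33.2, 33 and 21.9 TPM on day 0, 35.6, 39.3 and 38.2 on day 1, 8.95, 9.33 and 5.65 on day 2 and 0.867, 1.84 and 0.664 on day 3 (day 3: log2 fold change -4.77, SE 0.30, adjusted p = 2.27e-08). *Sycp3*, a protein of the synaptonemal complex, instead went from 18.6, 23.4 and 16.7 TPM on day 0 to 56.3, 57.2 and 48.6 on day 3 (log2 fold change 1.38, SE 0.13, adjusted p = 1.65e-08). Between day 2 and day 3 all 5 germ cell genes, *Sycp3* among them, were called lower, against 15.7% of all genes.

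**Figure D5:**
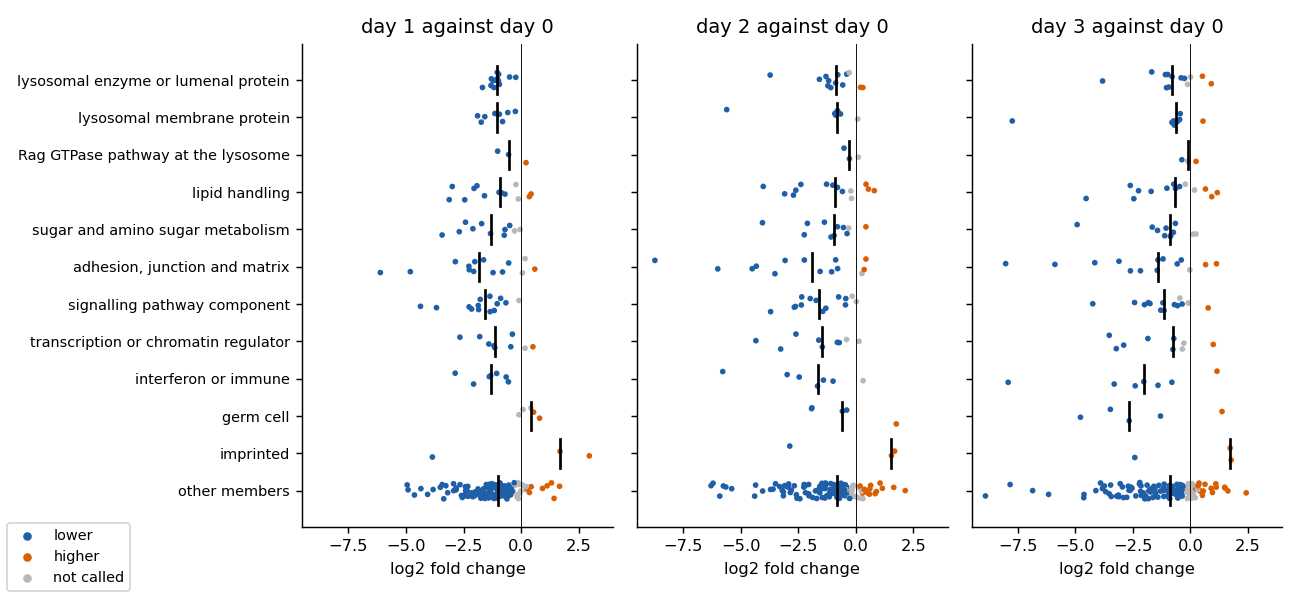
Log2 fold change to day 0 (x axis) of the 226 genes tested, by role (y axis), with 1 panel per day. Blue points were called lower, orange points higher and grey points not called, and a black line marks the median of each role. On day 1 the medians of all roles but germ cell (0.43) and imprinted (1.69) lie under 0, and by day 3 the germ cell median is at -2.66.

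The 3 imprinted genes split. *H19*, an imprinted long noncoding RNA, was at 2.34, 2.38 and 1.11 TPM on day 0, 6.99, 6.66 and 4.35 on day 1, 6.92, 6.43 and 6.22 on day 2 and 9.23, 5.5 and 6.5 on day 3, and was higher on day 1 (log2 fold change 1.69, SE 0.27, adjusted p = 3.37e-05). *Peg10*, expressed from the paternal allele, was at 30.1, 20.6 and 33.7 TPM on day 0, 221, 190.4 and 216 on day 1, 82.6, 82.8 and 89.3 on day 2 and 95.3, 79.7 and 123 on day 3 (day 1: log2 fold change 2.96, SE 0.19, adjusted p = 6.47e-07), which was the largest rise of the 227 on that day. *Plagl1*, a zinc finger factor, fell from 8.78, 7.61 and 8.77 TPM to 0.656, 0.496 and 0.491 (log2 fold change -3.85, SE 0.16, adjusted p = 2.69e-13). The day-0 levels of *H19* and *Peg10* lay below those of the GFP+ cells. In GFP+ wild-type cells *Peg10* was at 217 and 224 TPM and *H19* at 11.2 and 5.97.

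Some rises were steady. *Rnf128*, an E3 ubiquitin ligase gene, was at 4.66, 4.52 and 3.67 TPM on day 0, 10.1, 12 and 11 on day 1, 21.4, 17.9 and 19.6 on day 2 and 28.2, 20.2 and 25 on day 3, with the largest rise of the named genes on day 3 (log2 fold change 2.43, SE 0.14, adjusted p = 6.26e-12). *Eid1*, *Gprc5b* and *Fam57a* were also among the 6 largest rises on day 3, at log2 fold changes of 1.63, 1.49 and 1.51. *Smyd1* and *Tnnt1*, genes of muscle, rose on day 1 and then fell. *Smyd1*, which encodes a methyltransferase, was at 4.45, 4.68 and 5.27 TPM on day 0, 11.9, 12.8 and 19 on day 1, 0.271, 0.737 and 0.73 on day 2 and 0.715, 0.211 and 0.228 on day 3 (day 1: log2 fold change 1.67, SE 0.21, adjusted p = 4.95e-06). *Tnnt1*, a troponin gene, was at 4.63, 5.6 and 4.56 TPM on day 0, 12.1, 10.9 and 11.9 on day 1 and 3.81, 3.38 and 3.19 on day 3 (day 1: log2 fold change 1.32, SE 0.19, adjusted p = 7.33e-06). Among the largest falls of genes without an assigned role, *Lrrc34* went from 52, 54 and 51.3 TPM on day 0 to 1.45, 1.9 and 1.62 on day 1, *Lrrc15* from 1.38, 2.3 and 2.3 to 0.0482, 0.0492 and 0.0811, *Lrrc31* from 12, 16.4 and 12.4 to 0.578, 0.759 and 0.531, and *Serpinb6c* from 20.2, 22.7 and 13.8 to 0.614, 0.522 and 1.04. These falls did not reverse, and by day 3, 1 library each of *Lrrc31* and *Serpinb6c* was at 0. The predicted gene *Gm13580* was at 18.9, 17.2 and 23.4 TPM on day 0 and at 0 in all 3 libraries of day 3.

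Set side by side, the day-0 libraries and the GFP+ wild-type libraries differed for many of the 227 genes. On day 0, 183 of the 227 genes (80.6%) had a higher mean TPM than GFP+ wild-type cells, against 48.6% of the 10768 genes, and 54 (23.8%) were at least 2-fold higher, against 3.35%. The median ratio was 1.42. *Laptm5*, at 38.2 and 35.9 TPM in GFP+ wild-type and 204, 182 and 224 on day 0, was among those furthest apart. Sort, medium and series of libraries cannot be told apart here, so this ratio has no test. Features of the annotation also bear on single values. Of the 72 genes with several transcripts, 52 had at least 2 transcripts of 1 TPM or more in wild-type, and in 27 of these all such transcripts followed both directions. In GENCODE vM21 transcripts, the median share of a gene's stretches of 31 bases that another gene also holds was 1.28%, and 39 of the 227 genes passed 10%. *Ccdc3* (67.5%), *Zfp59* (65.1%), *Gm8615* (57.8%) and *Fabp3* (50.1%) shared the most, followed by *Sycp3* (46.5%), while *Ctsl* was at 28.2%. Reads of these genes may have been split with other genes.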

How the data were processed

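RNA-seq was measured in 6 libraries of GFP+ cells and 12 of the time course. The authors deposited estimated counts per transcript and TPM per gene, and the submitters' processing notes name kallisto 0.42.1, the build mm10 and DESeq2. Deposited tables of fold change, p-value and adjusted p were not used. The genes were selected on the deposited TPM values as they stand. For tests, estimated counts were summed to genes and rounded to whole numbers. Transcript TPM summed to genes in the same way gave the deposited TPM for 24102 of 24177 genes (99.7%). edgeR 4.0.16 in R 4.3.3 was run on the 12 time-course libraries with TMM scaling, filterByExpr and the quasi-likelihood test, checked on simulated data, with Benjamini-Hochberg adjustment over 14374 genes and a threshold of 0.05. Fold changes are log2 and SE is the standard error of the fit. Genes are named where they are in a gene list, among the 15 largest ratios between the KOs, among the 6 largest rises or falls on days 1 and 3, or next to a threshold. Genes outside these, such as *Cpt1a*, *Sfrp1*, *B2m* and other examples of a role, were named after their values were seen. The genes, lists, roles and motifs were chosen with earlier results of these data known. Alternatives were DESeq2 1.42.0, limma 3.58.1 on log2 values with pseudocounts, other filters and scalings, a replicate block, leaving out single libraries and other thresholds of the rule. Replicates differed by more than sampling noise, so each library was counted. Some genes that the naming rule takes in are not reported here by name and still count in every total.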

Additional observations from a re-analysis of the deposited data

How the results depend on the processing

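Across the alternatives each count of the 226 genes called stayed within 1.5 times the value given. On day 1 the count of lower genes was 164 to 185 and that of higher genes 14 to 19. On day 3 the counts were 140 to 160 and 30 to 35. DESeq2 called 179 lower and 18 higher on day 1. The number of genes chosen moved most: 79 at a fold of 1.5 and 124 at a wild-type minimum of 10 TPM, against 298 at 1 TPM and 187 on TMM CPM, and 212 to 285 when single libraries were left out. With the second *Tsc2* KO library left out of the rule, 212 genes were chosen, of which 197 were among the 227, and 170 of the 209 tested were lower on day 1. The median log2 ratio to day 0 was -1.13 by TPM, -1.12 without chromosome 1 and -1.76 at a fold of 1.5 on day 1, -1.57 at a fold of 1.5 on day 2, and -0.77, -0.80 and -1.58 on day 3 in the same order, with -0.87 to -0.81 when single libraries were left out. At these depths 3 counts come to 0.203 to 0.354 CPM, under which levels such as that of *Gm13580* on day 3 could not be measured. The counts of calls without that library, and those without chromosome 1 (171 lower, 15 higher on day 1), were added after seeing the data.

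The libraries of a day share replicate numbers with those of other days. Deviations of same-numbered libraries correlated by -0.115 to 0.138, so the numbers were not taken to pair them. With a replicate block, 183 genes were lower and 19 higher on day 1, and 160 and 32 on day 3, and every other count stayed within 1.5 times.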
